A study of Arabidopsis thaliana with 21 samples.

Results

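The response of Arabidopsis thaliana plants to 8 h of arsenate was read from 6 of the 21 arrays of the series, chosen by their labels: 3 arrays of wild-type plants with 30 µM arsenate and 3 of wild-type plants without supplement. All plants were of the Col-0 accession. They had grown for 7 days with 1 mM phosphate. They then spent 2 days on medium lacking phosphate before they were moved to liquid medium. The control plants were thus also short of phosphate, and the comparison is of arsenate against no supplement, without added phosphate in either group. Each array held the RNA of 1 of 3 independent biological samples per condition, hybridised as biotin-labelled cRNA to the single-colour Affymetrix ATH1 array. A further 6 ATH1 arrays, 3 with 30 µM phosphate and 3 with 1 mM phosphate for 8 h, were used for the estimate of spread and for levels set beside the comparison. The description of the 1 mM samples names the lower dose, while title, source name and characteristics give 1 mM, which was used. The labels name no tissue. The tables used here do not pair ATH1 probe sets with genes, so tissue markers and pathway lists could not be looked up, and transcripts other than the control transcripts named on the array are given by probe set.

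Arsenate is an analog of phosphate and enters plant cells through phosphate transporters, whose genes are induced when phosphate is short. Inside the cell it can take the place of phosphate in enzyme reactions, and much of it is reduced to arsenite, which binds thiol groups of proteins and of glutathione. Plants are known to bind arsenite with phytochelatins, peptides made from glutathione, and to store the complexes in the vacuole. Proteins damaged by arsenite can be refolded by chaperones or marked with ubiquitin for removal.

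The arrays were alike in scale, with medians between 5.02 and 5.18 (log2) and maxima between 13.66 and 13.91. Across probe sets, Pearson's r was 0.990 to 0.995 among the control arrays, 0.981 to 0.995 among the arsenate arrays and 0.920 to 0.948 between a control and an arsenate array. A control and a phosphate array correlated at 0.966 to 0.988. Arsenate replicate 1 stood apart from the other 2 arsenate arrays. Its root mean square deviation from the group mean was 0.272, against 0.178 for each of the others and 0.142 to 0.188 for the controls. It lay at least 2 log2 units above the mean of the other 2 for 14 probe sets and below it for 41, among them 27 called with a difference of at least 1 log2 unit. For 30 µM phosphate replicate 1 these counts were 30 and 5, and on the other 10 arrays none was above 6. Precision is bounded by having 3 arrays in each group. As the RNA is from bulk samples, fewer cells of a type and less RNA per cell cannot be told apart.

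The comparison asked which transcripts arsenate had raised or lowered after 8 h. More transcripts fell than rose, but the largest changes were rises. Of 22746 probe sets tested, 5469 (24.0%) passed an adjusted p of 0.05 in limma, of which 2465 (10.8%) were higher and 3004 (13.2%) lower with arsenate. These are called below. Among the calls the median rise was 0.98 log2 units and the median fall was -0.73. A difference of at least 1 log2 unit was called for 2119 probe sets (9.32%), 1211 higher (5.32%) and 908 lower (3.99%). At least 2 log2 units was reached by 414 rises and 266 falls, at least 4 by 72 rises and 14 falls, and at least 6 by 19 rises and 1 fall. The balance thus turned with size: 45.1% of all calls were higher and 57.1% of the calls of at least 1 log2 unit. Over all probe sets the median difference was -0.02, with quartiles of -0.21 and 0.15. Without arsenate replicate 1 the calls numbered 5239, of which 2023 were of at least 1 log2 unit.

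**Figure D1:**
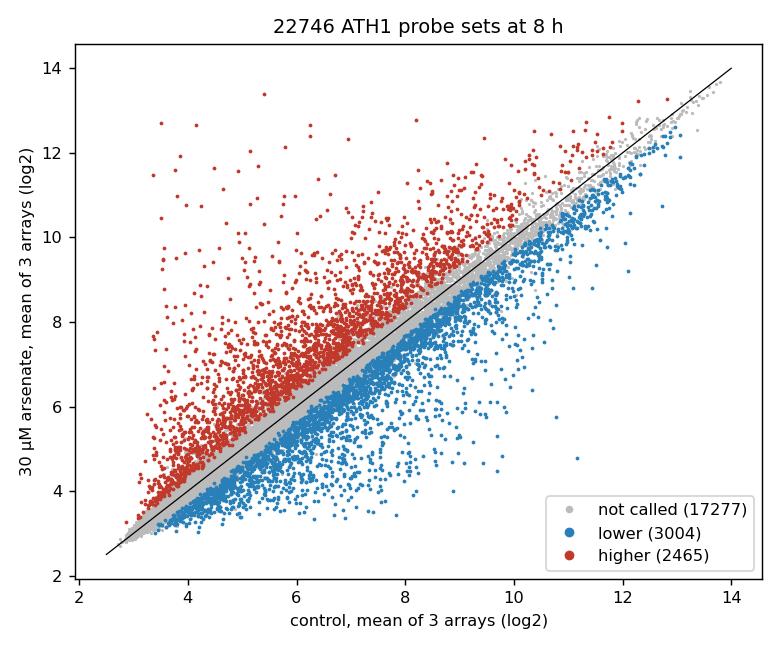
Mean level of each probe set in control plants (horizontal axis, log2, 3 arrays) and in plants with 30 µM arsenate (vertical axis, log2, 3 arrays). Red points are the 2465 probe sets called higher, blue points the 3004 called lower and grey points those not called, and the line marks equal levels. The red points reach farther from the line than the blue ones.

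The strongest rise was that of probe set 250351_at. Its level was 3.56, 3.71 and 3.24 on the 3 control arrays and 12.80, 12.60 and 12.75 on the 3 arsenate arrays. It thus moved from the lowest 25.7% or less of the probe sets on each control array to above 99.7% of them on each arsenate array. The difference was 9.21 ± 0.12 (SE, adjusted p = 6.5e-13), from 3.50 ± 0.24 to 12.72 ± 0.10 (mean ± SD, n = 3). On the 6 phosphate arrays it lay between 3.29 and 3.38. The test against 30 µM phosphate, which uses the same arsenate arrays, gave 9.39 ± 0.12 (adjusted p = 5.2e-13).

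The second largest rise was that of 260978_at, at 4.63, 4.06 and 3.74 on the control arrays and at 12.98, 12.63 and 12.38 on the arsenate arrays. The groups were far apart, and the difference was 8.52 ± 0.22 (adjusted p = 2.5e-10). With phosphate it lay between 3.78 and 4.29, within the range of the controls. Against 30 µM phosphate the difference was 8.77 ± 0.22 (adjusted p = 2.1e-10).

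Of the falls, that of 254820_s_at was the largest. Its level was 10.80, 11.47 and 11.23 on the control arrays, above 97.7% or more of all probe sets, and 4.44, 5.14 and 4.74 on the arsenate arrays (above 41.0% to 51.1% of them). It fell by 6.39 ± 0.19 (adjusted p = 8.3e-10). The 6 phosphate arrays lay at 11.14 to 11.50, and arsenate differed from 30 µM phosphate by -6.59 ± 0.19 (adjusted p = 5.9e-10). The ending _s_at marks a probe set that several transcripts share.

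The next fall was that of 260234_at, from 9.71, 9.56 and 9.81 on the control arrays to 3.44, 5.03 and 4.93 on the arsenate arrays. All 3 arsenate arrays were low, with replicate 1 the lowest. The difference was -5.23 ± 0.37 (adjusted p = 7.6e-07), and it was -4.71 without arsenate replicate 1. The phosphate arrays lay at 8.48 to 9.54. Of these 6, the lowest was 30 µM phosphate replicate 1. The difference from 30 µM phosphate was -4.67 ± 0.37 (adjusted p = 1.7e-06). That comparison called 31.2% of all probe sets, so a call there is common.

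**Figure D2:**
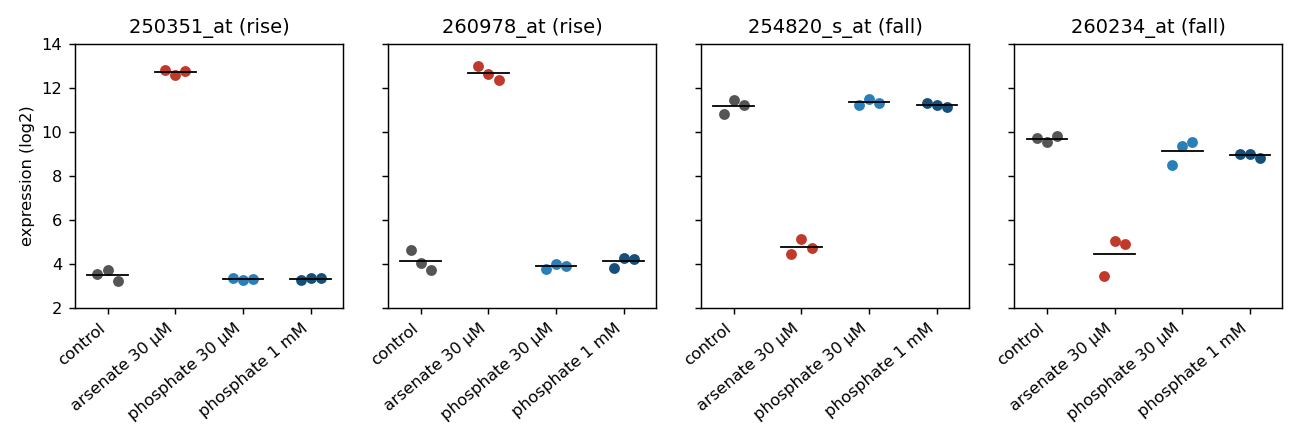
Level (log2) of the 2 probe sets with the largest rises and the 2 with the largest falls on each of the 12 ATH1 arrays, with a point per array and a line at the mean of each group. In each panel the 3 arsenate arrays stand apart from the other 9, at 12.38 to 12.98 for the rises and 3.44 to 5.14 for the falls.

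The other 8 of the 10 largest rises lay between 6.90 and 8.13 log2 units. Their control means ran from 3.36 to 5.40 and their arsenate means from 10.47 to 13.39. All 10 lay in the highest 25% of each arsenate array, which rises of this size all but fix. In the lowest 25% of all 3 control arrays lay 2 of the 10. The 10 rises did not come with equal certainty. The rise at rank 10 had an SE of 1.07 (adjusted p = 0.00045), since its control arrays lay at 6.46, 4.74 and 4.22, while its arsenate arrays lay at 12.64, 11.93 and 11.55. Its arrays also spread widely with phosphate, from 4.27 to 8.52. The other 8 of the 10 largest falls lay between -5.02 and -4.25, with control means from 7.84 to 10.78 and arsenate means from 3.43 to 5.76. All 10 lay in the highest 25% of each control array, which falls of this size nearly fix. On all 6 phosphate arrays 8 of the 10 did so. None lay in the lowest 25% of all 3 arsenate arrays.

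Levels on the scale ran from about 2.56 to 13.91. Near the lower end differences are compressed, because the background of the array sets a floor. A rise that starts at the floor and a fall that ends there are therefore smaller on this scale than in RNA. Of the 1211 rises of at least 1 log2 unit, 36 began in the lowest 25% of all 3 control arrays and 734 (60.6%) ended in the highest 25% of all 3 arsenate arrays. Over these rises the median level was 5.93 in the controls and 7.88 with arsenate. Of the 908 falls of that size, 474 (52.2%) began in the highest 25% of all control arrays. Of these 908, 22 ended in the lowest 25% of all arsenate arrays, and the median levels were 7.41 and 5.47. Of all 22746 probe sets tested, 4762 lay in the lowest 25% of all 3 control arrays and 5195 in the highest 25%. The same count over all probe sets was not made on the arsenate arrays.

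A full swing between the ends of the scale was rare. Of all probe sets, 7 lay in the lowest 25% of each control array and in the highest 25% of each arsenate array, with rises of 4.31 to 8.13. All 7 were called (24.0% of all probe sets were), which a swing of this size all but fixes. On the 6 phosphate arrays 4 of these 7 lay in the lowest 25% throughout, and 0 of them reached the highest 25% on any. The opposite swing, from the highest 25% to the lowest 25%, was made by 1 probe set. The limit of 25% was a choice made after the levels were seen.

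The share of probe sets called differed with their level on the array, which reflects the binding of the probes as well as the amount of RNA. To keep the level apart from the tested difference, probe sets were ordered by their mean on the 6 phosphate arrays. They were then cut into 10 bins of equal size. In the lowest bin, with levels up to 3.34, 34 of 2274 probe sets were called, all of them higher (1.50%). The share called higher grew to 17.1% in the sixth bin (levels from 5.10 to 5.85) and was 9.14% in the highest bin. The share called lower grew through all bins, from 0% in the lowest to 34.7% in the highest, where 790 of 2275 probe sets fell. In the highest bin, with levels from 8.68, falls of at least 1 log2 unit numbered 237 and rises 74. In the fifth bin, at levels from 4.39 to 5.10, these counts were 51 and 187. The median SE was 0.096 in the lowest bin, 0.171 in the sixth and 0.139 in the highest, so the lowest bin had few calls although its spread was the smallest. Falls that start near the floor have little room on this scale, and quantile normalization takes out a shift common to most transcripts. The part of both in this pattern was not tested.

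**Figure D3:**
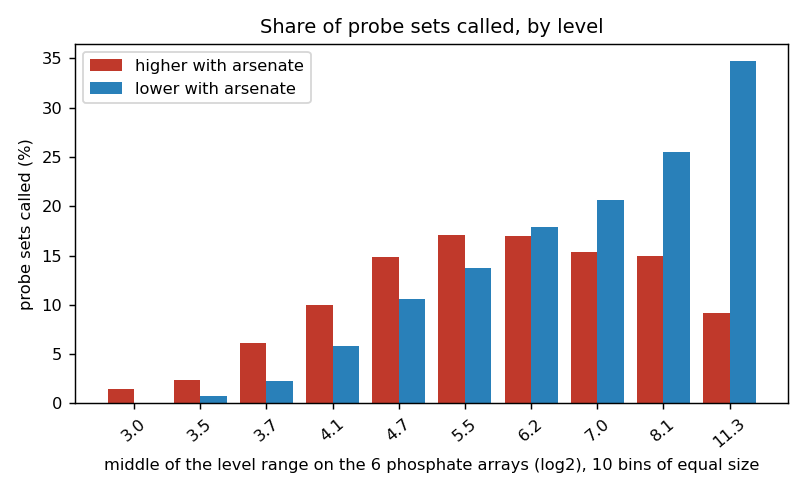
Share of probe sets called higher (red bars) and lower (blue bars) with arsenate, in percent, in 10 bins of equal size by mean level on the 6 phosphate arrays (log2, middle of each bin's range). The share called lower grows from 0% to 34.7%, and the share called higher is largest in the middle bins, at 17.1%.

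Most of the probe sets that arsenate had moved lay within 1 log2 unit of their control mean with phosphate, and some did not. Of the 1211 large rises, 98.3% lay within it with 30 µM phosphate (5 were at least 1 above and 16 at least 1 below) and 94.7% with 1 mM phosphate (7 above and 57 below). Of the 908 large falls the shares were 96.6% (9 above and 22 below) and 91.7% (22 above and 53 below). The same shares over all probe sets were not counted, so these cannot be called high or low. The median level over the 1211 large rises was 8.04, 7.85 and 7.83 on the arsenate arrays and 6.04, 5.87 and 5.91 on the control arrays. It was 6.08, 5.89 and 5.82 with 30 µM phosphate and 5.60, 5.68 and 5.74 with 1 mM phosphate. The 9 arrays without arsenate lay below those with it, and among them the 3 with 1 mM phosphate lay below the 3 controls. Over the 908 large falls the medians were 5.28, 5.59 and 5.50 with arsenate, 7.29, 7.56 and 7.46 in the controls, 7.23, 7.48 and 7.45 with 30 µM phosphate and 7.29, 7.29 and 7.23 with 1 mM phosphate. These probe sets were picked by the control and arsenate means, so the distance between those 2 groups is fixed by the choice. The phosphate means were not used in it, but the phosphate arrays entered the calls through the estimate of spread.

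**Figure D4:**
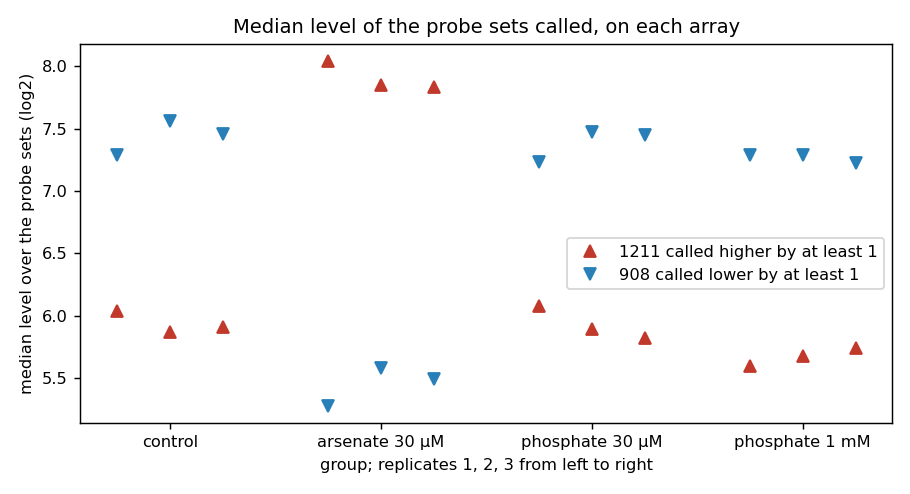
Median level (log2) on each of the 12 ATH1 arrays over the 1211 probe sets called higher by at least 1 log2 unit (red, pointing up) and the 908 called lower by at least 1 (blue, pointing down). The red medians lie at 7.83 to 8.04 with arsenate and at 5.60 to 6.08 elsewhere, and the blue ones at 5.28 to 5.59 with arsenate and 7.23 to 7.56 elsewhere.

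The large calls were chosen by the group means of the same 6 arrays, so their values on single arrays are a description and no support. Relative to the control mean, the median over the large rises was 1.81, 1.53 and 1.58 on arsenate replicates 1, 2 and 3, and the median over the large falls was -1.66, -1.45 and -1.52. Replicate 1 was the farthest from the controls in both directions. Over all probe sets, the 3 arsenate arrays did not overlap the 3 control arrays for 7919 (34.8%), and 5372 of these were called. Of the 5469 calls, 97 had groups that overlapped. When each of the 6 arrays was left out in turn, 3795 of the 5469 calls (69.4%) were made again in the same direction in every fit, 1807 higher and 1988 lower. Of the 2119 calls of at least 1 log2 unit, 2030 (95.8%) were.

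Some large differences did not pass. For 47 probe sets the means differed by at least 1 log2 unit without a call, 26 higher and 21 lower with arsenate, and the largest of these was -1.62. The median SD within groups was 0.647 for them and 0.276 for the large calls. At the other end, the smallest called rise was 0.26 and the smallest called fall was -0.24. Next to the threshold, the last probe set called fell from 7.41 to 6.98 (-0.43 ± 0.15, adjusted p = 0.049995), and the first not called went from 7.40 to 7.11 (-0.28 ± 0.095, adjusted p = 0.05005).

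Probe set types differed little, apart from 1 small class. Of 21685 probe sets with the plain ending _at, 24.2% were called, and of 935 shared by several transcripts (_s_at) 22.8%. Of 126 with the ending _x_at, some of whose probes match other sequences too, 10 were called (7.94%), 2 higher and 8 lower. Their median level on the phosphate arrays was 3.53, near the floor, against 5.15 for the plain type, and whether the difference in calls goes beyond level was not tested.

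The array carries control probe sets for a few named plant transcripts, which were left out of the counts above and tested in a second fit with all rows. They include GAPDH, an enzyme of glycolysis, ubiquitin, the small protein that marks others for removal, and actin, a protein of the cytoskeleton. GAPDH and ubiquitin rose with arsenate. All 5 GAPDH probe sets were called higher, by 0.40 to 0.82, against 10.8% of all probe sets tested. Probe sets of 1 control transcript read the same RNA and are not independent. For example, AFFX-Athal-GAPDH_M_s_at read 11.75, 11.76 and 11.79 in the controls and 12.68, 12.31 and 12.44 with arsenate. Its difference was 0.71 ± 0.12 (adjusted p = 0.00088), and the groups did not overlap for any of the 5, against 34.8% of all probe sets. Called GAPDH probe sets numbered 5 of 5 in each fit without 1 array.

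All 5 ubiquitin probe sets were called higher as well (10.8% of all), by 0.35 to 0.56, with no overlap between groups (34.8% of all). AFFX-Athal-Ubq_M_f_at read 10.96, 11.15 and 10.98 in the controls and 11.71, 11.51 and 11.55 with arsenate, a difference of 0.56 ± 0.10 (adjusted p = 0.0016). Ubiquitin genes form a family and these probe sets cannot tell its members apart. With 1 array left out, 3 of the 5 were called without control replicate 1, control replicate 3 or arsenate replicate 1 and 4 of the 5 otherwise. The replicate block also left 4.

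Of the 6 actin probe sets 0 were called, where 24.0% of all probe sets were, so that a count of 0 in 6 says little. They had differences from -0.13 to -0.05, adjusted p from 0.66 to 0.94 in limma, and 0 at an unadjusted p under 0.05. No direction can be given for actin: some of its probe sets were higher with arsenate after a further quantile normalization (up to 0.0042) and without control replicate 1 (up to 0.05), arsenate replicate 2 (up to 0.07) or arsenate replicate 3 (up to 0.12). AFFX-Athal-Actin_3_f_at read 10.90, 10.80 and 10.79 in the controls and 10.82, 10.72 and 10.69 with arsenate. Its difference was -0.09 ± 0.10, and the SE of the 6 probe sets ran from 0.10 to 0.33.

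**Figure D5:**
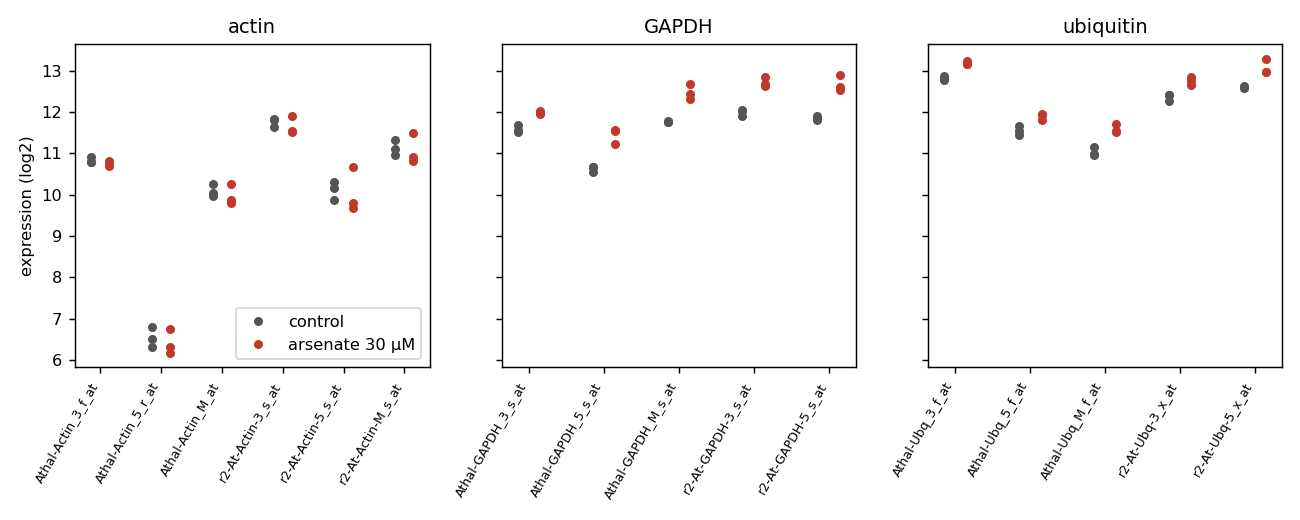
Level (log2) of the control probe sets for actin (6), GAPDH (5) and ubiquitin (5) on the 3 control arrays (grey) and the 3 arsenate arrays (red), with a point per array. Red points lie above grey ones for every GAPDH and ubiquitin probe set and overlap them for actin.

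The same probe sets read RNA integrity, since cRNA is made from the 3′ end of each transcript and a wide gap between 3′ and 5′ probe sets goes with shortened RNA. The gap was 4.38, 4.00 and 4.47 log2 units for actin in the controls and 4.06, 4.41 and 4.51 with arsenate, and for ubiquitin 1.32, 1.23 and 1.28 against 1.27, 1.34 and 1.24. A second pair of actin probe sets gave narrower gaps, of 1.54, 1.48 and 1.93 in the controls and 1.24, 1.75 and 1.83 with arsenate. A second ubiquitin pair gave -0.32, -0.22 and -0.20 in the controls and -0.45, -0.30 and -0.20 with arsenate. The groups overlapped for both transcripts with either pair. For GAPDH the gap was smaller with arsenate, at 0.41, 0.72 and 0.49 against 0.96, 0.89 and 1.00, without overlap, but a second pair of GAPDH probe sets gave -0.04, 0.10 and 0.08 against 0.15, 0.10 and 0.17, with overlap. Bacterial transcripts added in the hybridisation step (14 probe sets for bioB, bioC and bioD) differed by -0.67 to -0.36 between the arsenate and the control arrays. In limma 0 of the 14 were called, where 24.0% of all probe sets were. An unadjusted p under 0.05 was reached by 5 of the 14 and by 7503 of the 22746 probe sets tested. Probe sets of 1 added transcript are not independent. Although the groups overlapped, all 14 were lower with arsenate in each of the 3 same-numbered pairs, with medians of -0.56, -0.30 and -0.62, and 2 were called lower with the replicate block. Without control replicate 1, 5 were called lower. In these 2 fits 3267 and 2830 of the 22746 probe sets tested were called lower. Without any other single array 0 were called, and without arsenate replicate 1 the differences were -0.39 to -0.14. For example, AFFX-BioB-3_at read 8.05, 8.59 and 8.94 in the controls and 7.50, 8.32 and 8.26 with arsenate. It read 7.42, 8.07 and 7.72 with 30 µM phosphate and 9.14, 8.79 and 8.73 with 1 mM phosphate. Those for Bacillus transcripts (27 probe sets, also several to a transcript) differed by -0.41 to 0.17. Of them 0 were called (24.0% of all probe sets) and 0 had an unadjusted p under 0.05 (7503 of the 22746). Of these 27, 12 were lower with arsenate in all 3 pairs and 0 higher. The 4 probe sets for the added cre transcript differed by -0.27 to -0.16, with 0 called in limma and 1 at an unadjusted p under 0.05. All 4 were lower in all 3 pairs. The counts within pairs were not set beside the same counts over all probe sets, so they cannot be called high or low. The part of this difference in added transcripts in the results was not tested.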

How the data were processed

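Per the labels, each condition had 3 independent biological samples, whose RNA was kit-purified, checked on a Bioanalyzer, labelled with biotin and hybridised to 1 ATH1 array each. The deposited values are log2 expression per probe set, made by the authors with RMA per the submitters' processing notes (version not given in the sources used here), which corrects background, quantile-normalizes the arrays and summarises probes robustly. The 1.5 h arrays were not used here.

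Of 22810 probe sets, 64 control (AFFX) rows were left out. limma 3.58.1 in R 4.3.3 (lmFit, contrasts.fit, eBayes, two-sided) was fitted across all probe sets on the 12 arrays with 1 mean per group, without further normalization or filter, with Benjamini-Hochberg adjustment over 22746 probe sets and a threshold of 0.05 on the adjusted p. Errors given as SE are moderated, with 11.6 degrees of freedom. The fit was tested on simulated data. No sample column was left unused.

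The members, lists and rules were chosen with earlier results of these data known. Without a pairing of probe sets and genes, the rule for named probe sets gave the 2 largest called rises and falls whose groups do not overlap and the values next to the threshold, and the planned gene lists and the 1.5 h values of named genes were not analysed here. The control transcripts and the 10 largest changes per direction, described without their IDs, were added after the values were seen, as were the counts within pairs and the distances of phosphate means from control means.

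Same-numbered arrays were compared through their deviations from group means, where r above 0.1 in every pair was taken as pairing. Control and arsenate gave 0.39, 0.26 and 0.22, so the numbers in the titles, on whose meaning the labels are silent, pair these samples by that rule. Of the differently numbered arrays, control 3 with arsenate 2 gave 0.20 and control 2 with arsenate 3 gave 0.10. Those that involve a replicate 1 ran from -0.36 to -0.24. Replicates 2 and 3 are thus told apart little. Same-numbered values with 30 µM phosphate were 0.42, 0.39 and 0.13 for the controls and 0.49, 0.47 and 0.16 for arsenate, so its numbers pair by the rule. Of its differently numbered arrays, control 3 with phosphate 2 gave 0.35 and control 2 with phosphate 3 gave -0.06. Same-numbered values with 1 mM phosphate ran from -0.20 to 0.07, so its numbers do not pair by the rule.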

Additional observations from a re-analysis of the deposited data

How the results depend on the processing

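The counts of calls, of higher calls, of lower calls and of calls of at least 1 log2 unit stayed within 1.5 times their reported values in every alternative run. The 5469 calls became 5997 with the replicate block, 5562 after a further quantile normalization, 5373 with arrays centred on their medians, 5394 without probe sets below the 40 percentile in all groups, 4840 on the compared groups only, 5366 with a trended variance, 6588 with array weights and 5467 with control probe sets kept. Leaving out 1 array gave 4274 (without control replicate 3) to 5375 calls (without control replicate 1). Chosen after seeing the data, the replicate block gave 6095 on the compared groups only and 6682 without the 1 mM phosphate arrays, and leaving out replicate 1 of both groups gave 5151. Of the 5469 calls, 5377 were also called with the replicate block. The share of higher calls ran from 44.6% to 48.2%, and that of higher calls among those of at least 1 log2 unit from 55.7% to 57.9%. The 4 named probe sets kept their direction and call in all of these, with differences of 9.08 to 9.32 for 250351_at, 8.32 to 8.76 for 260978_at, -6.58 to -6.23 for 254820_s_at and -5.51 to -4.71 for 260234_at. Their largest adjusted p was 0.00012, for 260234_at with the replicate block on the compared groups only.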

Other observations

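A single control probe set, AFFX-r2-At-U12639_at, whose transcript the tables used here do not name further, read 8.09 on arsenate replicate 1 and 8.07 on 30 µM phosphate replicate 1, and between 3.31 and 3.78 on the other 10 arrays. It was looked up after its values were seen. Both arrays carry the replicate number 1, whereas control replicate 1 read 3.49. Of the 22746 probe sets tested, 12 lay at least 1 log2 unit higher on both these arrays than on any of the other 10. A further 3 lay at least 1 lower on both. Of these, 1 in all was called with arsenate, where 24.0% of all probe sets were. The choice all but fixes a low count, since it asks for a gap between arsenate replicate 1 and the other arsenate arrays. That gap widens the spread within the arsenate group, so the count of calls says nothing about arsenate.

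The control probe set for 25S ribosomal RNA read 8.25 ± 0.66 in the controls and 7.40 ± 0.10 with arsenate (SD, n = 3). The difference was -0.85 ± 0.42 and was not called (limma, adjusted p = 0.19). The groups did not overlap, as for 34.8% of all probe sets. In the 3 same-numbered pairs the probe set was lower with arsenate, by -0.38, -1.66 and -0.52. With phosphate it read 6.53 to 8.15.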
